A study of Homo sapiens with 9 samples.

Results

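The genes described here are 7 enzymes of heme biosynthesis, *ALAS1*, *ALAD*, *UROS*, *UROD*, *CPOX*, *PPOX* and *FECH*, chosen by gene symbol from an expression table of 57766 genes. Each symbol matched 1 row of the table, and the pathway's other step was not analysed here. The RNA-seq libraries hold polyadenylated RNA of HEK293 Freestyle, a suspension-grown cell line of human embryonic kidney origin, harvested 36 h after plating into 1 of 3 media. These were zinc-depleted Freestyle medium (depleted), such medium to which zinc was returned (repleted) and untreated Freestyle medium (full), with 3 libraries in each group. All 9 libraries come from a single cell line and shared the preculture, the wash in PBS and, as the labels read, plates rinsed with EDTA and PBS, and the labels call the 3 of a group biological triplicates without saying whether a number ties libraries of different media together. How zinc was removed, what else that step removed and how much Zn(II) was added back are not given in the sources used here.

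Heme is made in a relay between mitochondrion and cytosol. *ALAS1* encodes the housekeeping aminolevulinate synthase, which joins glycine to succinyl-CoA in the mitochondrial matrix and sets the rate of the pathway outside red cells. The product leaves for the cytosol, where *ALAD* encodes a zinc-dependent dehydratase that makes porphobilinogen, and *UROS* and *UROD* encode the enzymes that close the ring to uroporphyrinogen and trim its side chains. *CPOX*, *PPOX* and *FECH* encode the late mitochondrial enzymes, which oxidise the porphyrin and finally insert iron. Free heme lowers *ALAS1* activity by several routes, including its mRNA and its protein, and ALAD, which loses activity without its zinc, is the member that needs this metal directly.

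Expression is given as RPKM, reads scaled to gene length and to the library's reads, and changes as differences in log2(RPKM + 1), which understate those of weakly expressed genes, the more so the lower the level. No read totals are stated, and the spacing of low values put the libraries at between 16800000 and 23500000 reads, which would place between 237 and 2557 reads behind each value of these genes. The zinc treatment showed in the metallothionein *MT2A*, a zinc-binding protein gene induced by the metal, which averaged 6.46 ± 0.687 RPKM in depleted, 93.5 ± 3.34 in repleted and 190.7 ± 8.9 in full medium (SD, n = 3 each). All 7 listed HEK293 markers passed the expression filter of 1 RPKM in 3 libraries, *PAX2* only through repleted and full medium, since it measured 0.40 to 0.81 RPKM in the depleted libraries (summed level 836.5 to 859.1 RPKM in depleted, 843.2 to 869.8 in repleted and 862.3 to 873.5 in full libraries), although 5 of them fell and 1 rose in depleted against full medium, *NEFL* to 6.53 RPKM, against 31.8 in full medium. Most of each sum was *VIM*, the marker that rose, with 665.4 RPKM in depleted and 576.7 in full medium. The part of these markers in the results was not tested. The erythroid isoform *ALAS2* was listed at 0 in all 9 libraries. Because the RNA is from bulk cultures, fewer cells of a kind and less RNA per cell cannot be told apart.

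The pathway did not move as a block in zinc-depleted medium. The transcript of its entry enzyme, *ALAS1*, rose, while *UROS*, *CPOX* and *FECH* fell, *CPOX* most of all, 1.86-fold against full medium. The zinc enzyme itself, *ALAD*, was 1.23-fold lower on average but lay at the edge of the test, as did *UROD*, which was 1.09-fold higher, and *PPOX*, which varied most between replicates, did not pass. In depleted against full medium, 1 member rose and 3 fell of 7, all of which were tested. The background is broad, since 60.9% of the 15774 genes tested passed the same test, 29.8% higher and 31.2% lower, so that 4 of 7 is near the share of all genes and not a result about heme genes as a list. The median log2 change of the 7 was -0.18, against 0.00 over all genes tested. Their median absolute log2 change was 0.23, smaller than the 0.36 over all genes tested. With Zn(II) added back, no member passed the limma test against full medium, in which 0.0317% of all genes passed, and the counts against repleted medium were 1 higher and 4 lower, together beside 60.7% of all genes and singly beside 29.5% and 31.2%. Libraries of depleted and full medium did not overlap for 6 members, 2 higher and 4 lower, against 67.6% of all genes (33.4% higher, 34.3% lower). Those of depleted and repleted medium did not overlap for 5, 2 higher and 3 lower, against 65.2% (31.7% higher, 33.4% lower). These counts too are near the background, and the comparisons share libraries.

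**Figure D1:**
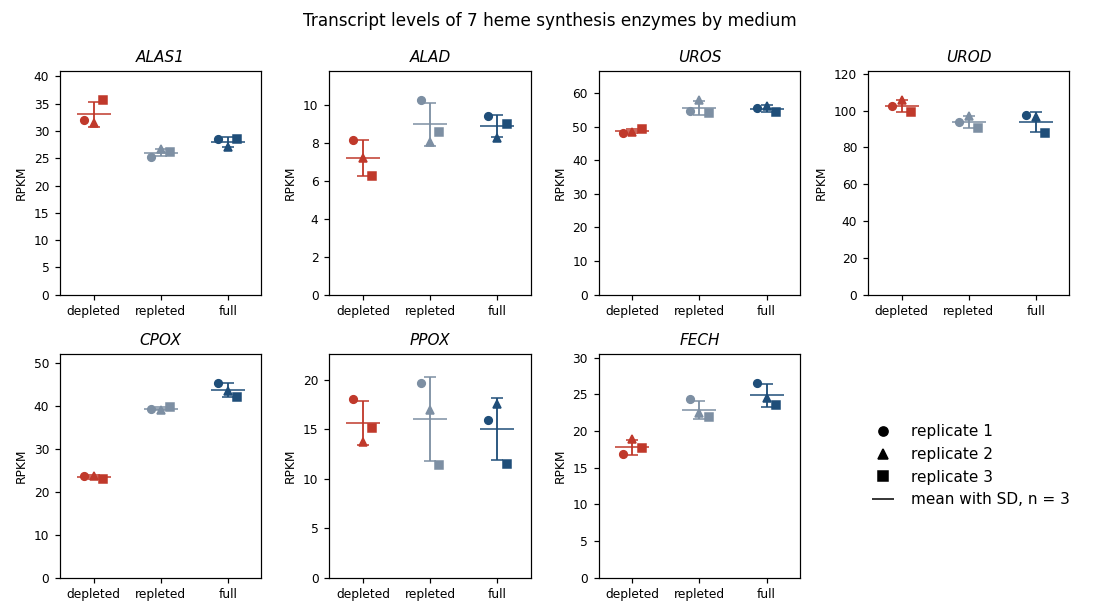
Levels of the 7 heme synthesis transcripts in RPKM (vertical axes, from 0) in depleted, repleted and full medium, with a point per library shaped by replicate number and bars for mean and SD (n = 3). *CPOX* sits between 23.0 and 23.7 RPKM in depleted medium and at 38.9 or more elsewhere, whereas the *PPOX* groups overlap.

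Promoter windows are shown for *ALAS1*, the member that rose, for *CPOX* and *FECH*, which fell most, and for *ALAD*, the zinc enzyme. They run from 250 bases before to 50 bases after the start of transcription, 5′ to 3′ on the strand of the gene, from RefSeq on GRCh38.p14. RefSeq windows matched 6 of the 7 members by symbol, with 2 start sites each for *ALAD* and *PPOX*. Capitals mark matches, on either strand, to GCATGCGC (nuclear respiratory factor NRF1), TGATGNAA (ATF4), TGACNNNGC (antioxidant element), TGCACNC or TGCGCNC (metal response element of MTF1) and AGATAA (for GATA-binding factors).
ALAS1 (chr3:52197833-52198132, + strand): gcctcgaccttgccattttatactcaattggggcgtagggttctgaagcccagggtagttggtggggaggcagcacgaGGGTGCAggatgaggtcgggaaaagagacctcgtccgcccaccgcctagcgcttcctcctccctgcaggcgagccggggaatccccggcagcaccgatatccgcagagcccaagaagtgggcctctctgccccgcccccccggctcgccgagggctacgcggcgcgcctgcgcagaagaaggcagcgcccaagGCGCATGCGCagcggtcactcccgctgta
ALAD (upstream start, chr9:113401235-113401534, - strand): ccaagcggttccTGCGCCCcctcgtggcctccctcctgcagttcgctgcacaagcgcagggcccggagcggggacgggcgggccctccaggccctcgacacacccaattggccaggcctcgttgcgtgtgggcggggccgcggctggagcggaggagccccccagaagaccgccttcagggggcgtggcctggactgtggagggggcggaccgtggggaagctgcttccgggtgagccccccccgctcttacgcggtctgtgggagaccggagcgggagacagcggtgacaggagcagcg
CPOX (chr3:98593562-98593861, - strand): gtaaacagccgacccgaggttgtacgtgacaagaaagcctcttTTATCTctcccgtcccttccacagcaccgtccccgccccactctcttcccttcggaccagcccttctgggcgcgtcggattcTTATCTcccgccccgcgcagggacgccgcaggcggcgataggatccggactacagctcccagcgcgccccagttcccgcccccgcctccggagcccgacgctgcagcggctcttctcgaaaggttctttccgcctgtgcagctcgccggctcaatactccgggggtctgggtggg
FECH (chr18:57586653-57586952, - strand): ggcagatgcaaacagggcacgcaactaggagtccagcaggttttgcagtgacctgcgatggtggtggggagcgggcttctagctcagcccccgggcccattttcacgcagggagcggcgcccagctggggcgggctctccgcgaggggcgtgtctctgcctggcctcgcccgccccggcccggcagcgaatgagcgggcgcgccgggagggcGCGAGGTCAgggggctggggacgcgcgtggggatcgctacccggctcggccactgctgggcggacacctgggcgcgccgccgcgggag
The NRF1 letters, read on both strands of an overlapping palindrome that begins 22 bases into the *ALAS1* transcript, occurred in 1 of the 8 windows of 6 members and in 3.05% of all 35116 windows. The metal response letters occurred in 3 of the 8 windows, against 29.6% of all windows, namely that of *ALAS1* and 1 of the 2 windows each of *ALAD* and *PPOX*. The downstream *ALAD* window, not printed, held none of the capitalised motifs. The antioxidant letters were found in 1 of 8, that of *FECH* (13.3% of all windows), and the GATA letters in 2 of 8, that of *CPOX*, at 2 places, and 1 of *PPOX* (10.3%). The ATF4 letters were in 0 of 8 and in 3.62% of all windows, and the GC box GGGCGG, not capitalised, was in 7 of 8 and in 45.0%. These matches describe the letters only and carry no statement about binding.

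*ALAS1* (ENSG00000023330) measured 32.07, 31.49 and 35.69 RPKM in the depleted libraries, 25.29, 26.62 and 26.06 in the repleted and 28.51, 26.98 and 28.52 in the full. Every depleted library lay above all 6 others, by the widest margin in depleted replicate 3. The rise over full medium was 0.23 on the log2 scale (SE 0.05, limma adjusted p = 0.00492, ratio of means 1.18), and over repleted medium 0.33 (SE 0.05, limma adjusted p = 0.000537, ratio 1.27). Both rises passed in all 17 alternative analyses. Repleted libraries lay below full ones without overlap, but that difference of -0.10 did not pass (95% interval -0.23 to 0.02, limma adjusted p = 0.703).

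*ALAD* (ENSG00000148218), the lowest of the 7 in every medium, measured 8.19, 7.24 and 6.26 RPKM in the depleted, 10.29, 8.09 and 8.62 in the repleted and 9.44, 8.30 and 9.02 in the full libraries. All 3 depleted libraries were below the full ones, the closest pair being 8.19 and 8.30, while depleted replicate 1 overlapped the repleted group. The log2 difference from full medium was -0.27 (SE 0.11, 95% interval -0.52 to -0.03), which missed the threshold over all genes (limma adjusted p = 0.0528). Against repleted medium it was -0.28 (SE 0.11) and just passed (limma adjusted p = 0.0483). Neither call was stable: over 17 alternatives the limma adjusted p lay between 0.0237 and 0.179 against full medium, where 4 passed, and between 0.0216 and 0.165 against repleted medium, where 5 passed. Against full medium the call appeared without depleted replicate 1 (limma adjusted p = 0.0243) or repleted replicate 1 (0.0365). Against repleted medium it was lost without full replicate 1 (0.0602), 2 (0.0573) or 3 (0.0642), depleted replicate 2 (0.0927) or 3 (0.165) or repleted replicate 1 (0.165) or 3 (0.0684). Repleted and full medium differed by 0.01 (95% interval -0.24 to 0.25).

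The other cytosolic steps were the most abundant members and moved little. *UROS* (ENSG00000188690), uroporphyrinogen synthase, measured 48.15, 48.57 and 49.31 RPKM in depleted, 54.61, 58.04 and 54.13 in repleted and 55.63, 56.37 and 54.31 in full libraries. No depleted library reached any of the 6 others, although the fall was small, 0.18 on the log2 scale against full (SE 0.04, limma adjusted p = 0.00222) and 0.19 against repleted medium (SE 0.04, limma adjusted p = 0.00197). Both falls passed in all 17 alternatives. *UROD* (ENSG00000126088), the decarboxylase that follows it, measured 102.3, 105.79 and 99.02 RPKM in depleted, 93.89, 97.13 and 90.63 in repleted and 97.73, 96.47 and 87.68 in full libraries. Its depleted libraries all lay above the others, by less than the range within any group, and the difference of 0.12 against full medium (SE 0.05, limma adjusted p = 0.0501) and against repleted medium (0.12, SE 0.05, limma adjusted p = 0.0502) narrowly missed the threshold. The call appeared in 5 of 17 alternatives against full medium, among them without full replicate 1 (limma adjusted p = 0.0373) or depleted replicate 3 (0.0477). It appeared in 8 of 17 against repleted medium, among them without full replicate 3 (limma adjusted p = 0.0225), depleted replicate 3 (0.0482) or repleted replicate 2 (0.0441).

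*CPOX* (ENSG00000080819), coproporphyrinogen oxidase of the space between the mitochondrial membranes, changed most. It measured 23.57, 23.74 and 23.00 RPKM in depleted, 39.34, 38.89 and 39.67 in repleted and 45.22, 43.47 and 41.95 in full libraries. The 3 groups were separate and each was tight, with coefficients of variation of 1.65%, 0.996% and 3.76%. It fell by 0.87 against full medium (SE 0.04, limma adjusted p = 1.47e-07) and by 0.72 against repleted medium (SE 0.04, limma adjusted p = 4.42e-07), in all 17 alternatives each. Repleted *CPOX* stayed below the full libraries without overlap, by -0.14 on the log2 scale (SE 0.04, 95% interval -0.24 to -0.05), with an unadjusted limma p of 0.00593 and an adjusted p of 0.474. Repleted and full libraries did not overlap for 2 of the 7 members, both lower, against 12.4% of all genes tested (5.39% higher, 7% lower). In GENCODE 29 *CPOX* exons share 163 bases with *AC021660.3* on the same strand, which was not used here.

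*PPOX* (ENSG00000143224), the flavin enzyme that follows CPOX, measured 18.09, 13.69 and 15.16 RPKM in depleted, 19.65, 16.99 and 11.35 in repleted and 15.96, 17.60 and 11.51 in full libraries. The groups overlapped throughout, replicate 3 was the lowest of the repleted and of the full libraries, and the coefficients of variation, 14.3%, 26.5% and 21.0%, were the largest of any member in each medium. The difference was 0.07 against full (SE 0.20, 95% interval -0.39 to 0.52) and -0.01 against repleted medium (95% interval -0.46 to 0.45) (limma adjusted p = 0.793 and 0.983), intervals wide enough to hold a change in either direction. In GENCODE 29 its exons share 1118 bases with *B4GALT3*, a galactosyltransferase gene on the opposite strand, at 36.9 RPKM in depleted, 29.8 in repleted and 31.0 in full medium. Whether the counting used strand is not given in the sources used here, so reads of the 2 genes may not have been told apart.

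*FECH* (ENSG00000066926), ferrochelatase, the iron-sulfur enzyme of the inner membrane that inserts iron, measured 16.80, 18.87 and 17.61 RPKM in depleted, 24.29, 22.49 and 21.90 in repleted and 26.50, 24.54 and 23.48 in full libraries. Depleted libraries were below all 6 others. The fall was 0.46 against full medium (SE 0.07, limma adjusted p = 0.000207, 1.40-fold) and 0.35 against repleted medium (SE 0.07, limma adjusted p = 0.00122, 1.29-fold), and both passed in all 17 alternatives. Between repleted and full medium the ranges overlapped (log2 difference -0.11, 95% interval -0.26 to 0.03).

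**Figure D2:**
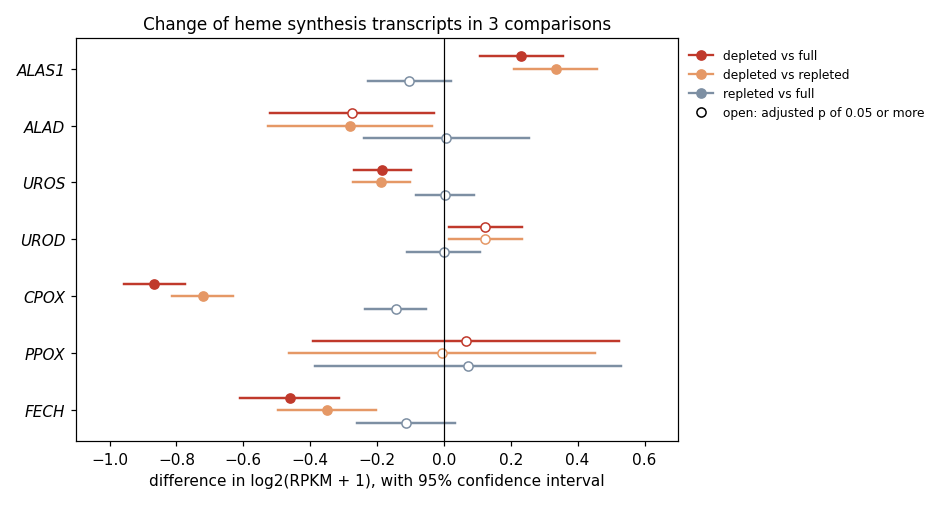
Differences in log2(RPKM + 1) of the 7 transcripts (horizontal axis) with their 95% confidence intervals, not adjusted for multiple testing, for the depleted group against each of the others and for repleted against full medium. Filled points passed an adjusted p of 0.05. In both depleted comparisons the intervals of *CPOX*, *FECH*, *UROS* and *ALAD* lie wholly below 0, and those of *ALAS1* and *UROD* wholly above it.

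The opposite movements changed the balance of transcripts along the pathway. Within a library, the *ALAS1* level was 1.36, 1.33 and 1.55 times that of *CPOX* in depleted, 0.643, 0.684 and 0.657 times in repleted and 0.630, 0.621 and 0.680 times in full medium. *CPOX* was therefore above *ALAS1* in all 6 zinc-containing cultures and below it in all 3 depleted ones, an exchange of neighbouring ranks among the 7. The ratio of *ALAS1* to *FECH* averaged 1.87 ± 0.182 in depleted, 1.14 ± 0.0841 in repleted and 1.13 ± 0.0743 in full medium, and that of *ALAS1* to *ALAD* 4.66 ± 0.931, 2.92 ± 0.425 and 3.14 ± 0.116 (SD, n = 3 each). The rest of the order was shared by the media. *UROD* was highest, *UROS* next, then *FECH*, *PPOX* and *ALAD* followed the exchanged pair. Neighbours in that order had separate libraries except *FECH* and *PPOX* in depleted medium. These ratios restate the levels above and carry no further test.

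**Figure D3:**
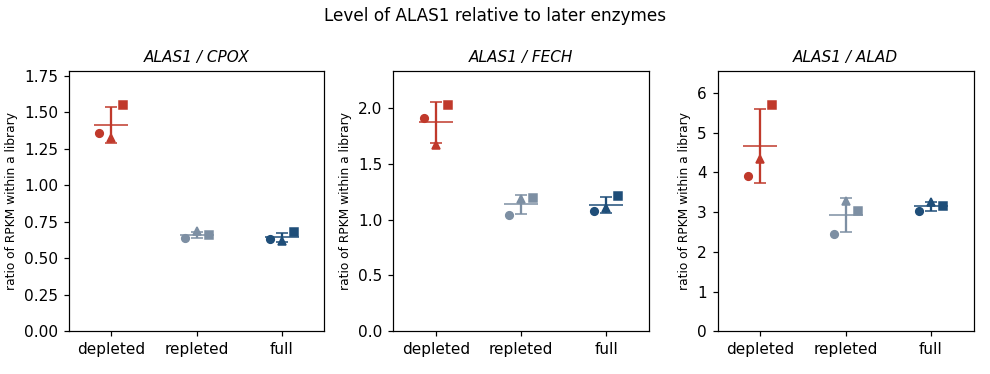
Ratios of the *ALAS1* level to the *CPOX*, *FECH* and *ALAD* levels within each library (vertical axes, from 0) in depleted, repleted and full medium, with points shaped by replicate number as in the plot of levels and bars for mean and SD (n = 3). The *ALAS1* to *CPOX* ratio is above 1 in every depleted library and below 0.7 in every other.

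In repleted medium, the 4 members that passed in both depleted comparisons over all alternatives lay nearer to full than to depleted medium. On the log2 scale, with depleted medium at 0 and full medium at 100%, repleted medium lay at 75.6% for *FECH*, 83.4% for *CPOX*, 102% for *UROS* and 145% for *ALAS1*. The 4 were picked for differing from depleted medium in both comparisons, so a position nearer to full medium largely follows from that choice. These positions share the depleted libraries with the other comparisons, and the differences between repleted and full medium did not pass. *MT2A* was lower in repleted than in full medium (log2 -1.02, SE 0.07, limma adjusted p = 0.00114).

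The genes whose pattern over the 9 libraries was most like that of *ALAD*, out of 10381 tested genes averaging 5 RPKM or more, were *VAC14* (Pearson's r = 0.97), *EN2* (0.96) and *PRR3* (0.96). For *ALAS1* they were *CENPBD1* (0.99), *MKNK1* (0.98) and *UBE3C* (0.98). Among the members, *ALAS1* had r of -0.85 with *CPOX*, -0.82 with *UROS*, -0.80 with *ALAD*, -0.79 with *FECH*, -0.07 with *PPOX* and 0.58 with *UROD*. These values are descriptions over libraries that share 3 media, and the depleted group sets most of their spread.

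Around the pathway, 61 of 63 listed genes in 9 groups were tested against full medium, of which 17 rose, 26 fell and 18 did not pass. That is 70.5%, beside 60.9% of all genes, with a median absolute log2 change of 0.36 and likewise 0.36 over all genes tested. Against repleted medium 19 rose and 26 fell, which is 73.8%, beside 60.7% of all genes (29.5% higher, 31.2% lower). Between repleted and full medium only *HMOX1* passed, which is 1.64%, beside 0.0317% of all genes. The counts of single groups below stand beside 29.8% of all genes tested higher and 31.2% lower, and none was tested as a group. Values below are RPKM in depleted and full medium, mean ± SD with n = 3, and log2 changes are depleted minus full.

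Of 8 genes whose enzymes make succinyl-CoA or glycine, the substrates of ALAS1, or use them, 4 rose and 2 fell (median log2 0.20). *SHMT2*, the mitochondrial hydroxymethyltransferase that makes glycine from serine, rose 2.12-fold to 219.5 ± 4.99 RPKM, against 103.6 ± 1.3 in full medium (log2 1.08, SE 0.04, limma adjusted p = 3.66e-08). *OGDH*, of the oxoglutarate dehydrogenase complex that makes succinyl-CoA, had 54.0 ± 0.554 and 37.4 ± 0.526 RPKM (log2 0.52). In contrast *SUCLG1* and *SUCLG2*, subunits of succinyl-CoA ligase, fell to 18.8 ± 2.11 and 10.3 ± 0.259 RPKM in depleted medium, against 49.0 ± 1.59 and 25.8 ± 0.957 in full medium (log2 -1.34 and -1.25). *SUCLA2*, also a subunit gene of this ligase, rose to 33.6 ± 2.68 RPKM, against 26.3 ± 0.22 in full medium (log2 0.34, limma adjusted p = 0.00122).

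Of 12 mitochondrial carriers, transporters and scaffold genes, 2 rose and 3 fell (median log2 -0.06). *SLC25A38*, the carrier that brings glycine into mitochondria for ALAS, rose 1.74-fold, with 38.5 ± 0.137 against 22.1 ± 0.529 RPKM (log2 0.78, SE 0.05, limma adjusted p = 8.92e-07). The glutathione carrier *SLC25A39* fell 2.17-fold, with 73.8 ± 3.3 against 160.3 ± 0.267 RPKM (log2 -1.11, SE 0.05, limma adjusted p = 1.61e-07). *ABCB10*, which supports early heme synthesis, and *TMEM14C*, an inner membrane protein known in mouse red cell precursors for porphyrin import, also fell, with log2 changes of -0.57 and -0.38. The other gene of this list that rose was *ABCB6*, with 11.1 ± 2.21 against 6.01 ± 0.358 RPKM (log2 0.77, limma adjusted p = 0.00037). Against repleted medium the log2 change of *SLC25A38* was 0.77 and that of *SLC25A39* was -1.08.

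Of 3 genes acting on the ALAS protein, 2 rose and 1 fell. *CLPX*, an unfoldase that activates ALAS and also takes part in its turnover, rose to 20.5 ± 0.702 RPKM, against 16.0 ± 0.906 in full medium (log2 0.34, limma adjusted p = 0.00992), and *LONP1*, the protease that degrades ALAS1, fell by 0.28. *CLPP*, the partner protease of CLPX, rose by 0.17 (limma adjusted p = 0.0209), a call lost in 6 of 17 alternatives, among them without full replicate 1 (0.0699) or 2 (0.0795) and depleted replicate 2 (0.0515) or 3 (0.0733). Of 6 tested regulators of *ALAS1* transcription 1 rose and 2 fell. The coactivator *PPARGC1B* fell to 1.59 ± 0.108 RPKM, against 3.47 ± 0.295 in full medium (log2 -0.79), and the retinoid receptor *RXRA* fell by 0.51 on the log2 scale. *FOXO1* rose by 0.25 (limma adjusted p = 0.0418), but not in 10 of 17 alternatives, including the analyses without full replicate 1 (0.0768), 2 (0.0577) or 3 (0.123), depleted replicate 1 (0.0795) or 3 (0.143) and repleted replicate 2 (0.0527) or 3 (0.0514). *NRF1* had 8.18 ± 1.28 RPKM in depleted and 9.74 ± 0.439 in full medium and did not pass (limma adjusted p = 0.0645, but 0.013 without depleted replicate 1).

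Of 5 heme-sensing regulators 3 rose and 1 fell (median log2 0.34), beside 29.8% and 31.2% of all genes. *EIF2AK1*, the kinase that halts translation when heme is short, rose to 140.5 ± 2.37 RPKM, against 111.0 ± 2.47 in full medium (log2 0.34, SE 0.03, limma adjusted p = 1.33e-05). *BACH1*, a repressor released from DNA by heme, rose to 15.3 ± 0.295 RPKM, against 11.1 ± 0.48 in full medium (log2 0.43). The heme-binding nuclear receptors split. On the log2 scale *NR1D2* rose by 0.92, with 32.3 ± 0.589 against 16.7 ± 0.928 RPKM. *NR1D1*, near the expression filter with 1.49 ± 0.19 against 2.57 ± 0.0557 RPKM, fell by 0.52 on that scale.

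Of 4 heme breakdown genes 1 rose and 3 fell, beside 60.9% of all genes called, 29.8% higher and 31.2% lower. *HMOX1*, the inducible heme oxygenase and a target of BACH1, fell to 33.7 ± 1.47 RPKM, against 53.0 ± 2.32 in full medium (log2 -0.64, SE 0.05, limma adjusted p = 2.61e-06). Its repleted level was 38.4 ± 0.76 RPKM, closer to depleted medium, and differed from full medium by -0.45 (limma adjusted p = 0.0282). That last call was lost in 10 of 17 alternatives (limma adjusted p from 0.0244 to 0.212 over all), including those without full replicate 2 (0.199) or 3 (0.212), depleted replicate 2 (0.0517) or repleted replicate 1 (0.0942), 2 (0.0925) or 3 (0.0744). *HMOX2*, the constitutive form, and the biliverdin reductase *BLVRA* fell by 0.41 and 0.34, and the second reductase *BLVRB* rose 1.68-fold, with 53.6 ± 3.55 against 31.9 ± 1.88 RPKM (log2 0.73).

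Of 15 heme protein genes 2 rose and 11 fell (median log2 -0.36), beside 29.8% and 31.2% of all genes. *CYCS*, cytochrome c, a gene with processed pseudogenes that may share its reads, fell to 157.4 ± 1.82 RPKM, against 233.9 ± 7.53 in full medium (log2 -0.57, SE 0.04, limma adjusted p = 9.11e-07), and the peroxidase gene *PXDN* fell by 0.94 on the log2 scale. *TBXAS1*, thromboxane synthase, is among the 11 but passed the filter only through the media where it was higher, with 0.49 to 0.85 RPKM in depleted, 3.59 to 5.08 in repleted and 5.19 to 6.68 in full libraries. *CYB561*, a membrane cytochrome, fell to 2.78 ± 0.236 RPKM, against 9.69 ± 0.846 in full medium (limma adjusted p = 3.93e-07). Of 3 genes for heme a and c maturation, *COX15* rose by 0.40, while *COX10* (-0.04) and *HCCS* (0.04) did not pass. Of 5 tested transporters in other membranes 1 rose and 3 fell. The heme exporter *FLVCR1* had 14.4 ± 2.52 and 10.2 ± 1.2 RPKM (log2 0.46, limma adjusted p = 0.0092), and the lysosomal heme transporter *SLC48A1*, the folate and heme carrier *SLC46A1* and *ABCC5* had log2 changes of -0.85, -0.29 and -0.76.

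**Figure D4:**
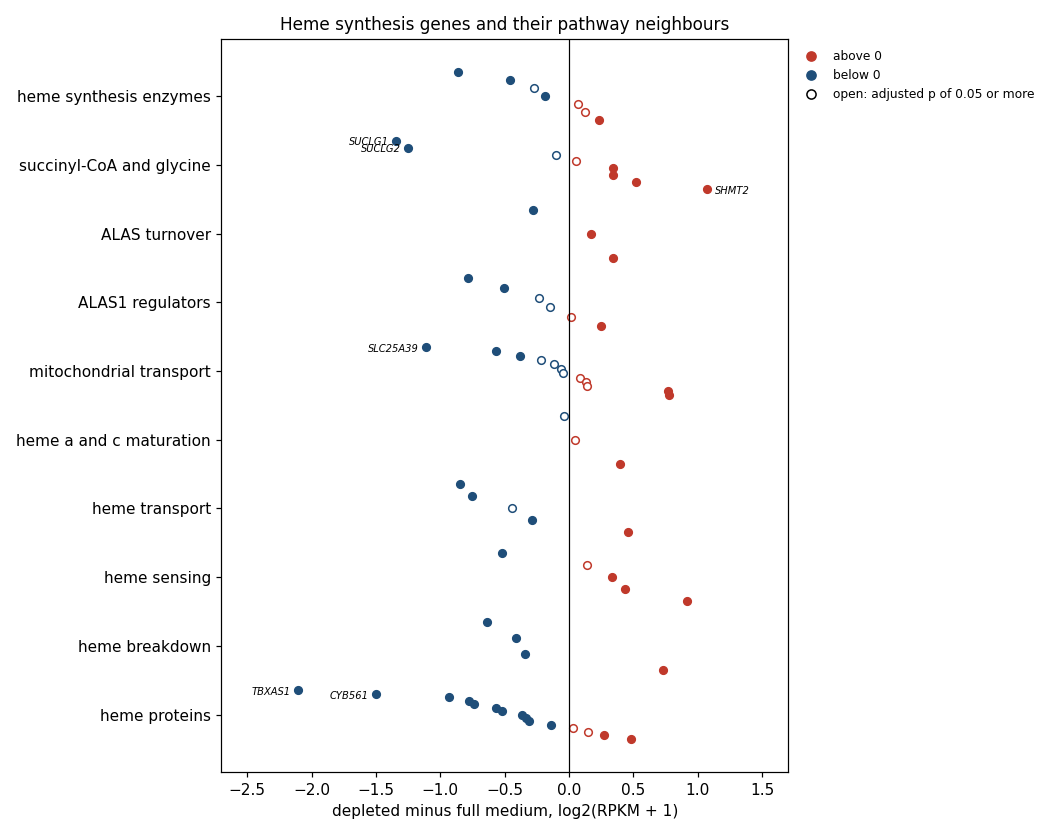
Log2 differences between depleted and full medium (horizontal axis) for each tested gene of the heme synthesis enzymes and of the 9 neighbouring groups (rows), filled where the adjusted p was below 0.05. Of the neighbouring genes 17 are filled above 0 and 26 below 0, and genes beyond 0.95 in either direction are named.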

How the data were processed

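Polyadenylated RNA of HEK293 Freestyle cells, 3 libraries per medium, was sequenced from single ends after TruSeq preparation, per the labels' protocols. The authors deposited log2(RPKM + 1) per Ensembl gene, with the log2 RPKM named in the file headers and the added 1 read from the values (lowest value 0, and 100% multiples of 0.01 RPKM after undoing the log, tolerance 2e-04 RPKM). The submitters' processing notes name, without roles, bedtools 2.25.0.3, RSEM 1.2.6, BWA 0.7.12-r1039, Bowtie 1.0.1 and the builds hg19 and GRCh37. Values are per gene, so shifts between transcripts are not resolved. Further scaling between libraries is not given in the sources used here, 20320 blank rows were dropped, and 0 columns were of unknown sample.

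Limma 3.58.1 in R 4.3.3 was fitted to the deposited log2 values of all 9 libraries, with 1 mean per medium and a variance trend, for the 15774 genes that reached 1 RPKM in 3 or more libraries. Benjamini-Hochberg adjustment ran over all genes of each of 3 comparisons, two-sided, with a threshold of 0.05, and the code was tested on simulated data. No counts are in the table, so depth was estimated by taking the commonest low value of genes with effective lengths of 100 to 500 nucleotides as 1 read. Between 59.3% and 66.0% of low values were then whole within 0.1 read, and no interval was computed from it. The members and lists were chosen with earlier results of these data known. Some genes of the pathway are not reported here and enter no list count. All members were named, with up to 4 genes per list by smallest p in depleted against full medium, and *MT2A*. *ABCB6*, *B4GALT3*, *SUCLA2* and *VIM* were named after their values were seen. Alternatives were a pseudocount of 0.1, no filter, a mean of at least 1 RPKM, only the 6 libraries compared, the replicate number as a block, median centring, quantile normalization, no variance trend and each library left out. Windows and motifs came from RefSeq GRCh38.p14 and overlaps from GENCODE 29. Gene coordinates on the authors' build were not used here. Figures used matplotlib 3.10.9 in Python 3.11.15.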

Additional observations from a re-analysis of the deposited data

How the results depend on the processing

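The calls of *ALAS1*, *UROS*, *CPOX* and *FECH* in both depleted comparisons passed in all 17 alternatives, with the direction reported. *ALAD* against full medium (log2 -0.27) passed with only the 6 libraries compared (limma adjusted p = 0.0474) and with a replicate block (0.0237). Against repleted medium it was lost without a filter (-0.28, limma adjusted p = 0.105), with only the 6 libraries (-0.28, 0.0782), without a variance trend (-0.28, 0.0554), after median centring (-0.23, 0.085) and after quantile normalization (-0.20, 0.135). *UROD* against full medium passed with the mean filter (0.12, limma adjusted p = 0.0489), a replicate block (0.12, 0.0169) and median centring (0.17, 0.0106). Against repleted medium it passed with these (0.12, 0.12 and 0.17), with only the 6 libraries (0.12) and after quantile normalization (0.12). With *UROD* passing, 2 members rose rather than 1.

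*PPOX* against repleted medium was 0.044 after median centring and 0.0075 after quantile normalization, *COX10* against full medium 0.0062 and 0.019, and *UROS* in repleted against full medium -0.00013 and -0.0034, each the other way from its reported sign and not called. These scalings moved the median of all genes by up to 0.05. *HMOX1* against repleted medium was lost after median centring (limma adjusted p = 0.0506). In repleted against full medium, the 5 genes called lower became 3 with a pseudocount of 0.1 and 2 with no filter, only the 6 libraries, a replicate block or no variance trend, 4 with the mean filter, 7 after median centring and 6 after quantile normalization. At an unadjusted limma p under 0.05 there were 1224 genes, 1 of them a member. The cause of these changes was not tested.

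Leaving out single libraries gave log2 ranges of -0.36 to -0.19 for *ALAD*, 0.075 to 0.15 for *UROD* and -0.10 to 0.18 for *PPOX* against full medium. Against repleted medium they were -0.36 to -0.19, 0.10 to 0.15 and -0.22 to 0.15. In repleted against full medium they were -0.084 to 0.073 for *ALAD*, -0.027 to 0.022 for *UROS*, -0.049 to 0.029 for *UROD* and -0.096 to 0.29 for *PPOX*. *COX10* against full medium ranged from -0.085 to 0.039, above 0 only without depleted replicate 1. Members called higher ranged from 1 to 2 and those called lower from 3 to 4 in both depleted comparisons. Repleted against full medium had 0 to 3 genes called higher and 1 to 6 lower. Same-numbered libraries had residual correlations of -0.014 to 0.073, against -0.061 to 0.042 for others, and not every library correlated best with its own number. With 3 libraries per group, these correlations cannot settle whether the numbers pair the samples. The number as a block changed only the calls of *ALAD* and *UROD* among the members.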

Other observations

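Red cell precursors make heme for globin. Of 12 listed erythroid markers 2, *HBA1* and *EPOR*, passed the expression filter and 4 were listed at 0 in all 9 libraries, and their summed level was 10.4 to 11.6 RPKM in depleted, 5.6 to 6.07 in repleted and 5.98 to 7.17 in full libraries. *HBA1*, an alpha globin gene whose near-identical copy *HBA2* may share its reads, rose to 4.15 ± 0.586 RPKM in depleted medium, against 1.41 ± 0.587 in full medium (SD, n = 3 each, log2 1.12, SE 0.21, limma adjusted p = 0.00136), and single repleted and full libraries lay under 1 RPKM. *EPOR*, the erythropoietin receptor gene, had 5.68 ± 0.178 RPKM in depleted and 4.7 ± 0.701 in full medium and did not pass (limma adjusted p = 0.0717). Hepatocyte and leukocyte markers each summed to at most 1.29 RPKM in any library. Of 4 listed fibroblast markers 2, *COL1A1* and *LUM*, passed the expression filter. All 4 together summed to 11.2 to 14.1 RPKM in depleted, 24.0 to 25.3 in repleted and 26.4 to 29.4 in full libraries. The part of any of these genes in the heme synthesis values was not tested.

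The summed level of the 7 heme synthesis transcripts was 246.1 to 249.4 RPKM in depleted, 252.4 to 268.3 in repleted and 256.5 to 279.0 in full libraries, without overlap between depleted and the others, as a description with no test. The sum averaged 248.2 RPKM in depleted and 269.7 in full medium, while *CPOX* alone averaged 23.44 and 43.55. *UROD*, the largest part of it, averaged 102.4 and 94.0 RPKM, so the lower sum is not a fall shared by the 7.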
